A study of Homo sapiens with 6 samples.

Results

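The genes described here are 42 genes of the MYC network and of ribosome biogenesis, chosen by symbol from a list of MYC/MAX network factors, RNA polymerase I genes and nucleolar processing genes, out of 36459 genes in the deposited gene table. All 42 were found in the table, and 41 passed the filter on low counts. MYCN, a MYC family member best known from neural tissue, did not pass. RNA was sequenced from PC9, a lung adenocarcinoma cell line of human origin whose growth depends on a mutated EGFR kinase, and from PS-PC9, the persister cells that survived 15 µM erlotinib (a drug that blocks EGFR) for 6 days. Both groups were the same cell line, and the labels give no gene edit in either. PC9 was represented by 3 libraries from 3 independent cultures, and PS-PC9 by 3 libraries pooled from 9 independent cultures, so the spread between PS-PC9 libraries is that of pools. Erlotinib and the persister state were present together in every PS-PC9 library, and the contributions of the drug and of the state cannot be told apart.

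MYC binds DNA as a pair with MAX and raises the transcription of many growth genes, and the MXD proteins, MXI1 and MNT compete for MAX and lower the same genes. Ribosomes are built in the nucleolus, where RNA polymerase I makes the long precursor of the ribosomal RNAs. This precursor is modified by the box C/D and box H/ACA snoRNPs (small nucleolar RNA-protein particles) and cut and folded into the small and large subunits with the help of many processing factors. Genes of this machinery are classic MYC targets, and their output is usually tied to growth.

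The libraries held 29476725 to 34893782 gene counts, and levels are given as CPM, counts scaled to library size after TMM normalization. PS-PC9 was compared with PC9 by edgeR's quasi-likelihood test over all 14626 genes that passed the filter, and a gene was called higher or lower at a Benjamini-Hochberg adjusted p-value under 0.01. CPM are shares of a library, and in bulk RNA fewer cells of a type and less RNA per cell cannot be told apart. The epithelial markers EPCAM, KRT8, KRT18, KRT19, CDH1 and EGFR were present in every library. In PS-PC9 2 of the 6 were higher and 4 lower, where 28.7% of all genes were higher and 28.1% lower. Their summed level was 6199.8 to 6574 CPM in PC9 against 4230.0 to 4379 CPM in PS-PC9. Among markers of other cell types, the T-cell gene CD3E was at 0 in all 6 libraries and the leukocyte gene PTPRC averaged 0.333 CPM in the first group and 0.151 in the second. The fibroblast list of 6 genes summed to 10.5 to 11.02 CPM in PC9 against 27.4 to 30.8 CPM in PS-PC9, nearly all of it COL1A1, while COL1A2, DCN, LUM and PDGFRA averaged under 0.1 CPM in both groups. The leukocyte list of 5 summed to 74.9 to 77.04 and 19.7 to 22.9 CPM, nearly all of it CD68, and the endothelial list of 3 to 8.05 to 8.82 and 3.25 to 3.804 CPM. The part of these markers in the results below was not tested.

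The network and the nucleolar genes moved both ways, by small amounts, with more genes higher than lower in PS-PC9. Of the 41 genes tested 19 were higher, 8 were lower and 14 did not pass the limit. Of all genes tested 56.8% were called, 28.7% as higher and 28.1% as lower, while among the 41 genes 65.9% were called, 46.3% higher and 19.5% lower. The median log2 fold change was 0.14 for the 41 genes and -0.0061 for all genes tested. The median size of the log2 fold change, without its sign, was 0.26 among them against 0.33 over all genes, and with a fold change above 1.5 as a further limit 5 genes (MXD1, RRP12, POLR1A, UTP20 and RRP9) were higher and 1 (MYCL) was lower, where 11.4% of all genes were higher and 12.6% lower. For 35 of the 41 genes the groups had no overlap in CPM, as was so for 71.3% of all genes. Without PS-PC9 replicate 3 the number of lower genes was 5 in place of 8.

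**Figure D1:**
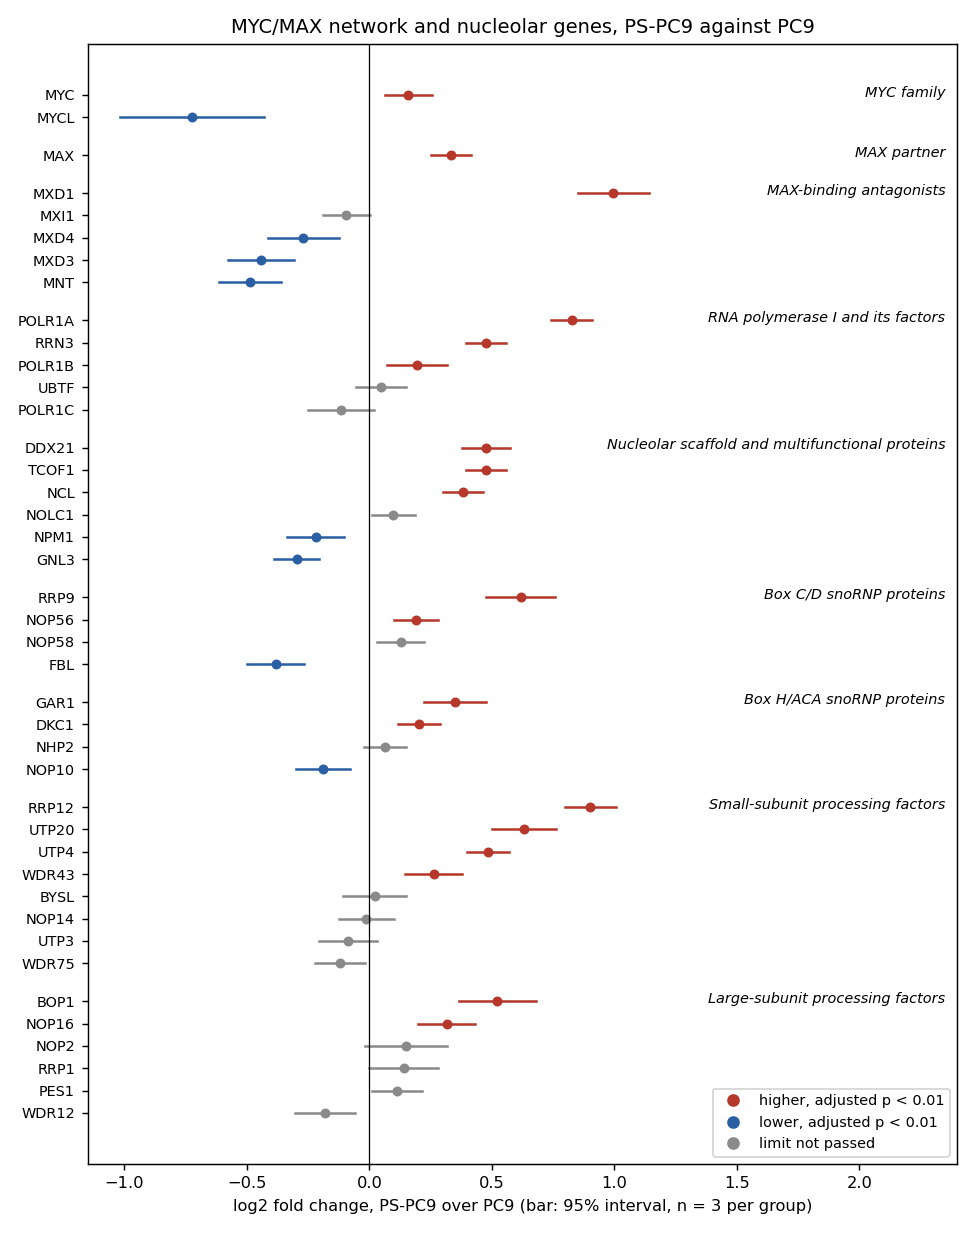
Log2 fold change of PS-PC9 over PC9 for the 41 genes tested (x axis), with the 95% interval of the edgeR fit as a bar and 3 libraries per group, arranged by role (y axis). Red points passed the limit as higher (19 genes), blue points as lower (8 genes) and grey points did not pass, and every group of nucleolar genes has red points while the blue ones are NPM1, GNL3, FBL, NOP10 and 4 genes of the MYC/MAX network.

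Within the MYC/MAX network, MYC itself was slightly higher, its partner MAX was higher, and the antagonists divided, with MXD1 at about 1.99-fold its PC9 level and MXD3, MXD4 and MNT lower. MYC was at 129, 141 and 137 CPM in the PC9 libraries and 146, 157 and 150.4 CPM in the PS-PC9 libraries. Every PS-PC9 library lay above every PC9 library, and the difference was 1.12-fold (log2 fold change 0.16, standard error 0.0439, edgeR adjusted p = 0.00772). MYCL, the relative first found in small cell lung cancer, was scarce, at 4.504, 5.99 and 5.61 CPM in the PC9 libraries and 3.36, 2.92 and 3.45 CPM in the PS-PC9 libraries. All 3 PS-PC9 libraries were below all 3 PC9 libraries (log2 fold change -0.73, standard error 0.133, edgeR adjusted p = 0.000597). MYCN had 0 counts in every library, where the 3 counts taken as the detection floor are 0.0872 to 0.0891 CPM in PC9 against 0.0878 to 0.103 CPM in PS-PC9. MAX (ENSG00000125952, chromosome 14, 65006174 to 65102695, GRCh38) was at 71.5, 70.4 and 71.3 CPM in the PC9 libraries and 89.6, 91.02 and 88.1 CPM in the PS-PC9 libraries. The MAX libraries of one group lay within about 3 CPM of each other and the groups stood apart (log2 fold change 0.33, standard error 0.0371, edgeR adjusted p = 1.35e-05).

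MXD1 (ENSG00000059728, chromosome 2, 69897688 to 69942945), the antagonist classically linked to cells that leave the cycle and differentiate, was at 7.55, 7.84 and 7.63 CPM in the PC9 libraries and 15.5, 15.5 and 14.9 CPM in the PS-PC9 libraries. This was the largest rise among the 41 genes (log2 fold change 1.00, standard error 0.0654, edgeR adjusted p = 2.13e-07). MXD3, an antagonist that is unusual in being expressed in dividing cells, was at 18.5, 19.8 and 18.6 CPM in the PC9 libraries and 13.4, 13.8 and 14.6 CPM in the PS-PC9 libraries. MXD4 was at 44.4, 52.7 and 52.1 CPM in the PC9 libraries and 42.3, 39.7 and 41.7 CPM in the PS-PC9 libraries, and MNT, a broadly expressed antagonist, at 52.9, 61.4 and 55.8 CPM in the PC9 libraries and 39.4, 41.3 and 40.5 CPM in the PS-PC9 libraries. For each of these 3 genes all PS-PC9 libraries lay below all PC9 libraries, with log2 fold changes of -0.44, -0.27 and -0.49 and edgeR adjusted p-values of 7.55e-05, 0.00361 and 2.13e-05. MXI1 was at 44.5, 44.7 and 44.3 CPM in the PC9 libraries and 41.3, 43.1 and 40.6 CPM in the PS-PC9 libraries. Its groups did not overlap, but the log2 fold change of -0.095 (95% interval -0.19 to 0.00057, edgeR adjusted p = 0.0724) did not pass the limit. The MYC call was near the limit and was lost without PC9 replicate 1 (0.12, adjusted p = 0.0186), without PC9 replicate 3 (0.16, adjusted p = 0.02595), without PS-PC9 replicate 2 (0.13, adjusted p = 0.0401) and without PS-PC9 replicate 3 (0.16, adjusted p = 0.0265), and also with upper-quartile or library-size normalization and with gene counts summed from transcripts, at 0.12, 0.11 and 0.14. MXD4 lost its call without PC9 replicate 3 (-0.24, adjusted p = 0.0209), without PS-PC9 replicate 2 (-0.24, adjusted p = 0.01999) and without PS-PC9 replicate 3 (-0.28, adjusted p = 0.012996).

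**Figure D2:**
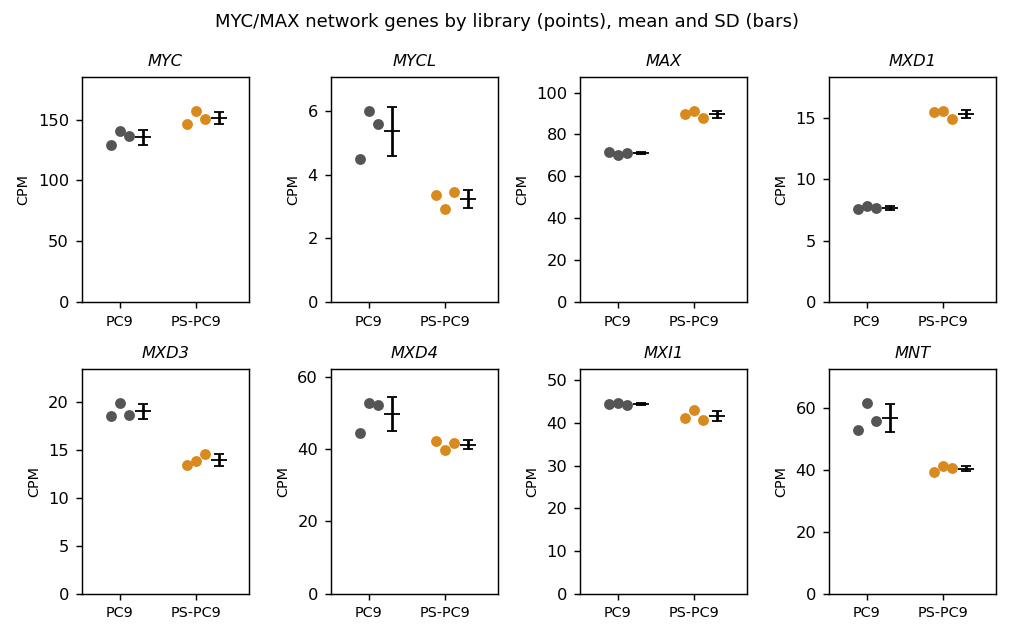
CPM (y axis, starting at 0) of 8 MYC/MAX network genes in each PC9 library (grey points) and PS-PC9 library (orange points), with the mean and SD of 3 libraries beside the points. MAX and MXD1 are higher in PS-PC9, MYCL, MXD3 and MNT are lower, and the shifts of MYC, MXD4 and MXI1 are small against their level.

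To compare levels between genes, CPM were divided by the mean length of each gene's matched transcripts in kilobases, weighted by their reads. On this scale MYC was at 57.5, 62.7 and 60.9 CPM per kb in PC9 and 65.3, 69.9 and 67.03 CPM per kb in PS-PC9, and MAX at 50.7, 49.99 and 50.6 CPM per kb in PC9 and 63.6, 64.6 and 62.5 CPM per kb in PS-PC9, with MYC above MAX in every library. For MYC 68.2% of the gene's reads were on matched transcripts, so its length is less certain. The 5 antagonists together were at 71.9, 78.3 and 75.004 CPM per kb in PC9 and 62.1, 63.2 and 62.9 CPM per kb in PS-PC9, lower in all 3 PS-PC9 libraries. The largest part of that sum was MXI1, with 23.7 CPM per kb in PC9 and 22.2 in PS-PC9. MXD1 remained the scarcest antagonist in both groups, at 1.39 and 2.77 CPM per kb. In PC9 MXD3 and MNT came next after MXI1, at 17.8 ± 0.694 and 17.1 ± 1.32 CPM per kb (SD, n = 3), and their libraries overlapped, with MXD4 below both at 15.01 ± 1.39. In PS-PC9 the order was MXD3, MXD4 and MNT, at 13.1 ± 0.561, 12.4 ± 0.4003 and 12.2 ± 0.285 CPM per kb, and neighbours in it overlapped. The ratio of MYC to the summed antagonists was 0.7996, 0.801 and 0.812 in PC9 and 1.05, 1.11 and 1.07 in PS-PC9. The ratio of the antagonists to MAX was 1.42, 1.57 and 1.48 in PC9 and 0.9753, 0.978 and 1.01 in PS-PC9. The ratio of MYC to MAX was 1.13, 1.25 and 1.204 in PC9 and 1.03, 1.08 and 1.07 in PS-PC9. None of these 3 ratios overlapped between the groups, with MYC higher against the antagonists and lower against MAX in every PS-PC9 library. These ratios are of RNA levels and carry no test.

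**Figure D3:**
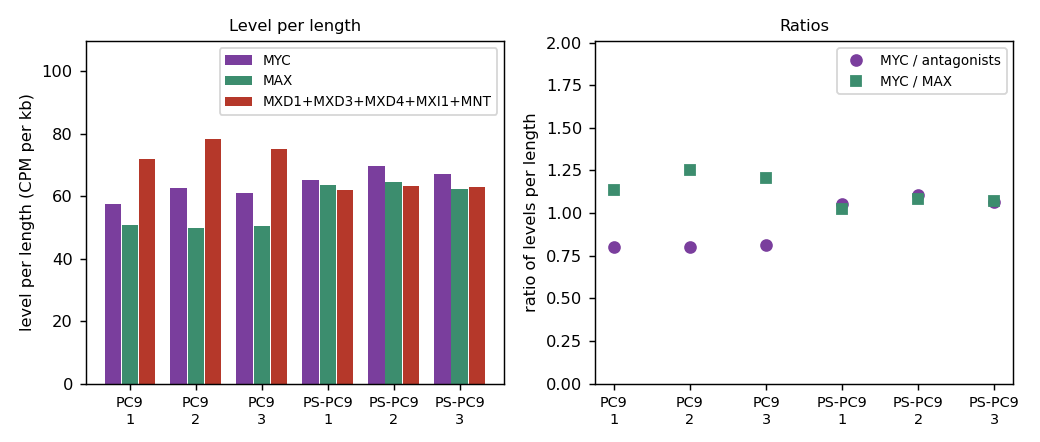
Left, level per length (y axis, CPM per kb, starting at 0) of MYC, MAX and the sum of 5 antagonists in each of the 6 libraries (x axis). Right, ratio of MYC to that sum (circles) and to MAX (squares), where the circles lie at 0.7996 to 0.812 in PC9 and 1.05 to 1.11 in PS-PC9.

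Of the RNA polymerase I genes 3 of 5 were higher and 0 lower, where 28.7% of all genes were higher and 28.1% lower. The largest subunit led the rises. The 10 other RNA polymerase I genes, described below, went the other way, with 1 higher and 5 lower. POLR1A (ENSG00000068654, chromosome 2, 86020216 to 86106155), which holds the catalytic centre together with POLR1B, was at 51.4, 50.9 and 51.1 CPM in the PC9 libraries and 90.5, 89.3 and 91.9 CPM in the PS-PC9 libraries. The PC9 libraries differed by less than 1 CPM and all PS-PC9 libraries were above them by 1.77-fold (log2 fold change 0.83, standard error 0.0377, edgeR adjusted p = 1.30e-08). POLR1B was at 44.3, 38.7 and 42.8 CPM in the PC9 libraries and 49.6, 46.8 and 47.6 CPM in the PS-PC9 libraries. Its libraries did not overlap, but the difference was small (log2 fold change 0.20, standard error 0.0556, edgeR adjusted p = 0.00927). RRN3 (ENSG00000085721, chromosome 16, 15060033 to 15094311), the factor that brings RNA polymerase I to the ribosomal gene promoter and that responds to growth signals, was at 62.6, 61.9 and 63.1 CPM in the PC9 libraries and 86.7, 87.05 and 87.2 CPM in the PS-PC9 libraries. All PS-PC9 libraries were 1.39-fold higher on average (log2 fold change 0.48, standard error 0.0367, edgeR adjusted p = 7.45e-07). POLR1C, a subunit shared with RNA polymerase III, was at 16.5, 17.9 and 18.1 CPM in the PC9 libraries and 15.96, 15.9 and 16.6 CPM in the PS-PC9 libraries. UBTF, the factor that keeps ribosomal genes open, was at 117, 126 and 123 CPM in the PC9 libraries and 119, 132 and 127 CPM in the PS-PC9 libraries. In both genes the groups overlapped, and the log2 fold changes of -0.12 (95% interval -0.25 to 0.018) and 0.048 (95% interval -0.056 to 0.15) did not pass the limit. The call of POLR1B was lost without PC9 replicate 2 (0.14, adjusted p = 0.0221), without PC9 replicate 3 (0.21, adjusted p = 0.0232), without PS-PC9 replicate 1 (0.17, adjusted p = 0.0387), without PS-PC9 replicate 2 (0.21, adjusted p = 0.0189) and without PS-PC9 replicate 3 (0.20, adjusted p = 0.0273), and also with upper-quartile or library-size normalization and with gene counts summed from transcripts, at 0.15, 0.14 and 0.19. RRN3 has pseudogene copies, so part of its reads could have been assigned to or from them.

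The nucleolar scaffold and multifunctional proteins went both ways, with NCL, TCOF1 and DDX21 higher and NPM1 and GNL3 lower. NCL (nucleolin, ENSG00000115053, chromosome 2, 231453531 to 231483641), an abundant nucleolar RNA-binding protein, was at 787, 760.3 and 779.8 CPM in the PC9 libraries and 973, 1045 and 1012 CPM in the PS-PC9 libraries (log2 fold change 0.38, standard error 0.0366, edgeR adjusted p = 4.35e-06). DDX21, an RNA helicase that works with RNA polymerase I and II, was at 361, 323 and 337 CPM in the PC9 libraries and 485, 477 and 461 CPM in the PS-PC9 libraries (log2 fold change 0.48, standard error 0.0443, edgeR adjusted p = 3.29e-06). TCOF1 (treacle), which recruits UBTF and the polymerase and is mutated in Treacher Collins syndrome, was at 138, 145 and 137 CPM in the PC9 libraries and 194, 194 and 197 CPM in the PS-PC9 libraries (log2 fold change 0.48, standard error 0.0365, edgeR adjusted p = 7.20e-07). In these 3 genes no PS-PC9 library overlapped a PC9 library. NPM1 (nucleophosmin, ENSG00000181163, chromosome 5, 171387116 to 171411810), a histone and ribosome chaperone and the most abundant of the 42 genes, was at 1878, 1627 and 1732 CPM in the PC9 libraries and 1436, 1557 and 1503 CPM in the PS-PC9 libraries. All PS-PC9 libraries were below all PC9 libraries, by a log2 fold change of -0.22, adjusted p = 0.00311 by edgeR. GNL3 (nucleostemin), a nucleolar GTPase of dividing and stem cells, was at 116, 106 and 109 CPM in the PC9 libraries and 89.9, 88.9 and 90.7 CPM in the PS-PC9 libraries (log2 fold change -0.30, standard error 0.0415, edgeR adjusted p = 8.03e-05). NOLC1, a chaperone of snoRNPs, was at 159.8, 154 and 154 CPM in the PC9 libraries and 164, 174 and 163 CPM in the PS-PC9 libraries. Its groups did not overlap, and its log2 fold change of 0.097, adjusted p = 0.0487 by edgeR, did not pass the limit. NPM1 has many processed pseudogenes that can share reads, and its call was lost without PC9 replicate 3 (-0.23, adjusted p = 0.0119), without PS-PC9 replicate 1 (-0.19, adjusted p = 0.0156) and without PS-PC9 replicate 3 (-0.22, adjusted p = 0.0117).

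The genes of the core proteins of the box C/D snoRNPs, which guide ribose methylation, did not move together. Fibrillarin, FBL (ENSG00000105202, chromosome 19, 39834458 to 39846379), the methyltransferase of these particles, was at 169.9, 193 and 181 CPM in the PC9 libraries and 133, 141 and 144 CPM in the PS-PC9 libraries. Every PS-PC9 library was below every PC9 library (log2 fold change -0.38, standard error 0.0517, edgeR adjusted p = 6.10e-05). NOP56 and NOP58, its partners in the same particle, were at 99.5 ± 3.14 CPM in PC9 against 114 ± 2.75 CPM in PS-PC9 and at 52.3 ± 1.85 CPM in PC9 against 57.2 ± 1.01 CPM in PS-PC9 (SD, n = 3). NOP56 was higher as a whole gene (0.19, adjusted p = 0.00151 by edgeR), and NOP58, at a log2 fold change of 0.13, adjusted p = 0.0218 by edgeR, did not pass the limit. The NOP56 transcript that passed as higher has no defined coding sequence. The main coding transcript of NOP56 was lower without passing, as described below. RRP9, specific to the U3 particle that starts cleavage of the precursor, was at 17.8, 19.3 and 19.4 CPM in the PC9 libraries and 26.7, 29.8 and 30.1 CPM in the PS-PC9 libraries. It was 1.53-fold higher (log2 fold change 0.62, standard error 0.06298, edgeR adjusted p = 6.94e-06). The call of NOP56 was lost without PC9 replicate 3 (0.16, adjusted p = 0.0132) and with library-size normalization (0.14, edgeR adjusted p = 0.0102).

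The box H/ACA particles, which guide pseudouridylation, showed the same division. DKC1 (dyskerin, ENSG00000130826, chromosome X, 154762742 to 154777689), the pseudouridine synthase that is also part of telomerase, was at 160.2, 150.3 and 156 CPM in the PC9 libraries and 174, 184 and 178 CPM in the PS-PC9 libraries. It was slightly higher with no overlap (log2 fold change 0.20, standard error 0.0393, edgeR adjusted p = 0.000878). GAR1 was at 14.6, 15.3 and 14.5 CPM in the PC9 libraries and 19.3, 19.1 and 18.2 CPM in the PS-PC9 libraries and was also higher (log2 fold change 0.35, standard error 0.0575, edgeR adjusted p = 0.000268). NOP10, the smallest protein of the particle, was at 53.7, 57.2 and 52.3 CPM in the PC9 libraries and 45.5, 48.5 and 49.1 CPM in the PS-PC9 libraries, lower in all PS-PC9 libraries (log2 fold change -0.19, standard error 0.04998, edgeR adjusted p = 0.00617). NHP2, at 92.3 ± 1.101 CPM in PC9 against 96.4 ± 3.01 CPM in PS-PC9 (SD, n = 3), had a log2 fold change of 0.062 (95% interval -0.024 to 0.15) and did not pass. The call of NOP10 was lost without PC9 replicate 2 (-0.15, adjusted p = 0.0161), without PS-PC9 replicate 1 (-0.15, adjusted p = 0.03399), without PS-PC9 replicate 2 (-0.20, adjusted p = 0.0174) and without PS-PC9 replicate 3 (-0.21, adjusted p = 0.0128). Of the 8 genes of snoRNP proteins in both particles 4 were thus higher and 2 lower, FBL and NOP10. Over all genes tested 28.7% were higher and 28.1% lower. The 4 include NOP56, whose main coding transcript was not higher.

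Of the 8 small-subunit processing factors 4 were higher and 0 lower, where 28.7% of all genes were higher and 28.1% lower. RRP12 (ENSG00000052749, chromosome 10, 97356358 to 97426076), a large repeat protein needed for export and late maturation of the small subunit, was at 30.4, 33.2 and 30.8 CPM in the PC9 libraries and 58.5, 59.7 and 58.2 CPM in the PS-PC9 libraries. The groups stood apart by 1.87-fold (log2 fold change 0.90, standard error 0.0476, edgeR adjusted p = 3.91e-08), and only MXD1 had a larger rise among the 41 genes. UTP20 (ENSG00000120800, chromosome 12, 101280105 to 101386618), a very large scaffold protein of the small-subunit processome, was at 39.3, 35.1 and 37.9 CPM in the PC9 libraries and 62.2, 55.9 and 55.8 CPM in the PS-PC9 libraries (log2 fold change 0.63, standard error 0.05896, edgeR adjusted p = 3.54e-06). UTP4, also named cirhin, was at 47.4, 47.3 and 46.7 CPM in the PC9 libraries and 66.8, 65.5 and 65.3 CPM in the PS-PC9 libraries (log2 fold change 0.48, standard error 0.0389, edgeR adjusted p = 1.08e-06). WDR43, a processome protein that also binds RNA polymerase II genes, was at 77.6 ± 5.92 CPM in PC9 against 93.1 ± 1.07 CPM in PS-PC9 (SD, n = 3), a log2 fold change of 0.26, adjusted p = 0.00118 by edgeR. All 4 genes had no overlap between groups. The other 4 factors did not pass. WDR75 was at 41.3, 41.7 and 39.1 CPM in the PC9 libraries and 37.4, 38.3 and 36.6 CPM in the PS-PC9 libraries, with no overlap and a log2 fold change of -0.12, adjusted p = 0.0384 by edgeR. UTP3, with its log2 fold change of -0.089 (95% interval -0.21 to 0.030), NOP14 with -0.012 (-0.13 to 0.10) and BYSL with 0.022 (-0.11 to 0.15) had overlapping groups. UTP3 was at 24.8, 23.9 and 23.3 CPM in the PC9 libraries and 22.1, 23.6 and 22.01 CPM in the PS-PC9 libraries. NOP14 was at 71.3, 72.2 and 66.98 CPM in the PC9 libraries and 68.7, 74.02 and 66.1 CPM in the PS-PC9 libraries.

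Of the 6 large-subunit factors 2 were higher and 0 lower, where 28.7% of all genes were higher and 28.1% lower. BOP1, which forms the PeBoW complex with PES1 and WDR12, was at 27.9, 32.8 and 28.99 CPM in the PC9 libraries and 39.8, 42.7 and 46.03 CPM in the PS-PC9 libraries (log2 fold change 0.52, standard error 0.071001, edgeR adjusted p = 6.63e-05). The 2 partners did not pass the limit. PES1 was at 87.7, 94.6 and 94.5 CPM in the PC9 libraries and 95.9, 99.5 and 104 CPM in the PS-PC9 libraries, with a log2 fold change of 0.11, adjusted p = 0.0504 by edgeR, and WDR12 was at 33.8, 31.97 and 31.2 CPM in the PC9 libraries and 28.7, 29.8 and 26.95 CPM in the PS-PC9 libraries, with a log2 fold change of -0.18, adjusted p = 0.0124 by edgeR, in the opposite direction. The groups of both genes did not overlap. NOP16, a small nucleolar protein known as a MYC target, was at 25.8, 26.2 and 24.4 CPM in the PC9 libraries and 31.6, 32.9 and 30.5 CPM in the PS-PC9 libraries and was higher (log2 fold change 0.31, standard error 0.05202, edgeR adjusted p = 0.000281). NOP2, a methyltransferase of the large-subunit rRNA, and RRP1 had log2 fold changes of 0.15 (95% interval -0.017 to 0.32) and 0.14 (-0.0029 to 0.28) and did not pass. With the replicate block, or with upper-quartile or library-size normalization, WDR12 passed as lower, at -0.18, -0.23 and -0.24, and with the last pair of settings WDR75 did too, at -0.16 and -0.17.

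**Figure D4:**
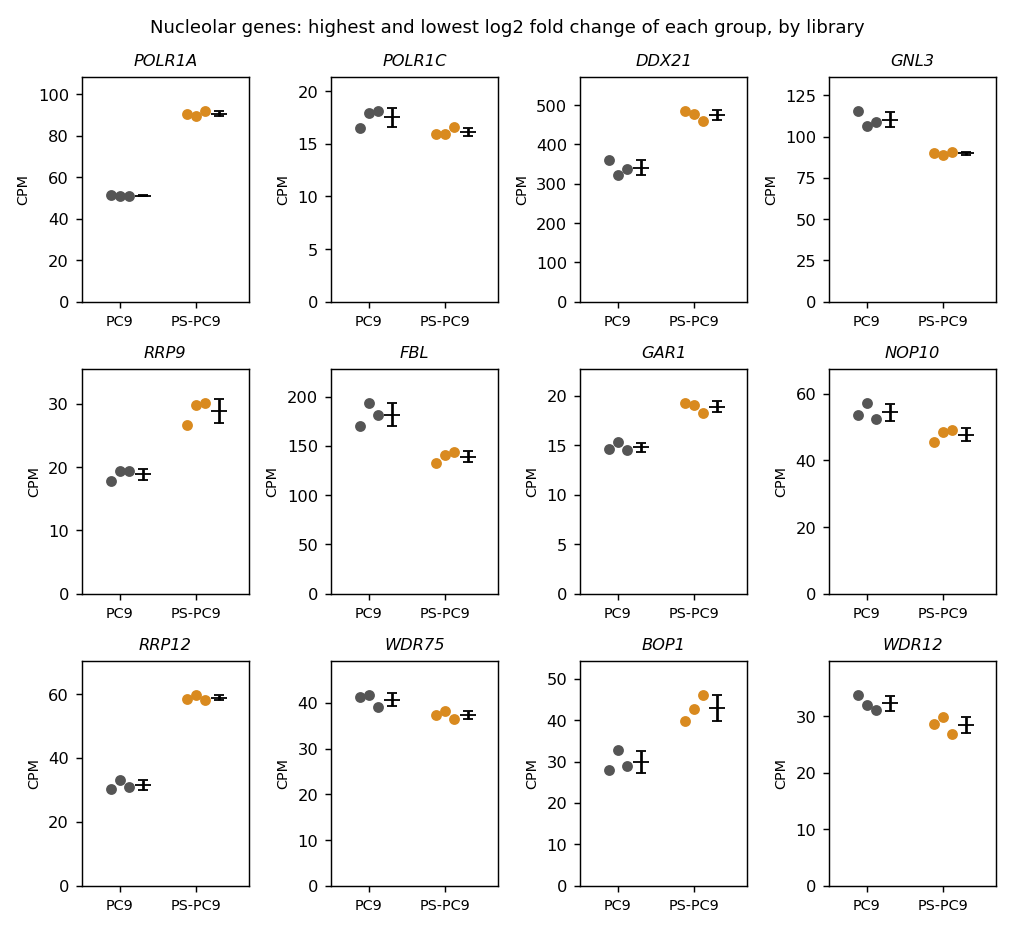
CPM (y axis, starting at 0) by library for the gene with the highest and the gene with the lowest log2 fold change in each of the 6 groups of nucleolar genes, with PC9 in grey, PS-PC9 in orange, and the mean and SD of 3 libraries beside the points. POLR1A, DDX21, RRP9, GAR1, RRP12 and BOP1 are higher in PS-PC9, GNL3, FBL and NOP10 are lower, and POLR1C, WDR75 and WDR12 did not pass the limit.

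The promoters of these genes were read for the E-box CACGTG, the 6-base word that MYC-MAX and MXD-MAX pairs bind. The genes were chosen from the MYC network and from a machinery known as MYC targets. A larger share with the word is therefore not independent of the choice. RefSeq promoter windows (GRCh38.p14), from 250 bases before to 50 after an annotated start, were matched by symbol for 36 of the 42 genes, and MYC, NOLC1, TCOF1, NOP58, RRP12 and BOP1 had no entry. The word reads the same on both strands. It was present for 15 of the 36 genes, 41.7%, against 8.77% of the 27305 genes in the table (7.26% of its 35116 windows), and for 29 of 106 other ribosome biogenesis genes, 27.4%. The 27305 genes were not limited to those tested here. Of the 16 copies 13 began within 40 bases of the start, and positions were not counted for other genes. Genes that rose and genes that fell both carried it, 6 of the 15 higher genes with a window, 5 of the 8 lower genes and 4 of the 12 that did not pass. POLR1A and MXD1, the genes with a window that rose most, had no CACGTG there. The stretches below show the word, in capitals, close to the start in genes of both directions, written from 5′ to 3′ on the strand of the gene. The first 4 are the 80 bases just before the start, for UTP20, chr12:101280025-101280104, plus strand, UTP4, chr16:69132569-69132648, plus strand, DDX21, chr10:68956567-68956646, plus strand (its second annotated start) and NOP10, chr15:34343137-34343216, minus strand.
UTP20: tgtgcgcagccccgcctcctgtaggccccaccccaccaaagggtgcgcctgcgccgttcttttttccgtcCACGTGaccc
UTP4: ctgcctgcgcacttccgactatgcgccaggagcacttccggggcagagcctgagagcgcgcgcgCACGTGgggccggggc
DDX21: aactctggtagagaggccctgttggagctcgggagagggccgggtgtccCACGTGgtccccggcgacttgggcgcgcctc
NOP10: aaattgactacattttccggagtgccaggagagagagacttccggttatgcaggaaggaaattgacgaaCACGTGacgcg
UTP20, UTP4 and DDX21 were higher in PS-PC9 and NOP10 was lower. The next 4 are 30 bases around a word at or just after the start, for RRP9, chr3:51941892-51941921, minus strand, WDR43, chr2:28894658-28894687, plus strand, FBL, chr19:39846356-39846385, minus strand and GNL3, chr3:52686026-52686055, plus strand (its second annotated start).
RRP9: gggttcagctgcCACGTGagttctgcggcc
WDR43: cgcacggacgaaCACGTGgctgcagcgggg
FBL: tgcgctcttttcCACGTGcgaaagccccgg
GNL3: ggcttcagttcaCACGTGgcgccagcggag
RRP9 and WDR43 were higher and FBL and GNL3 lower, and in each the word lay within 40 bases of the annotated start used. A match of letters is a description of the sequence and does not show that a factor was bound.

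**Figure D5:**
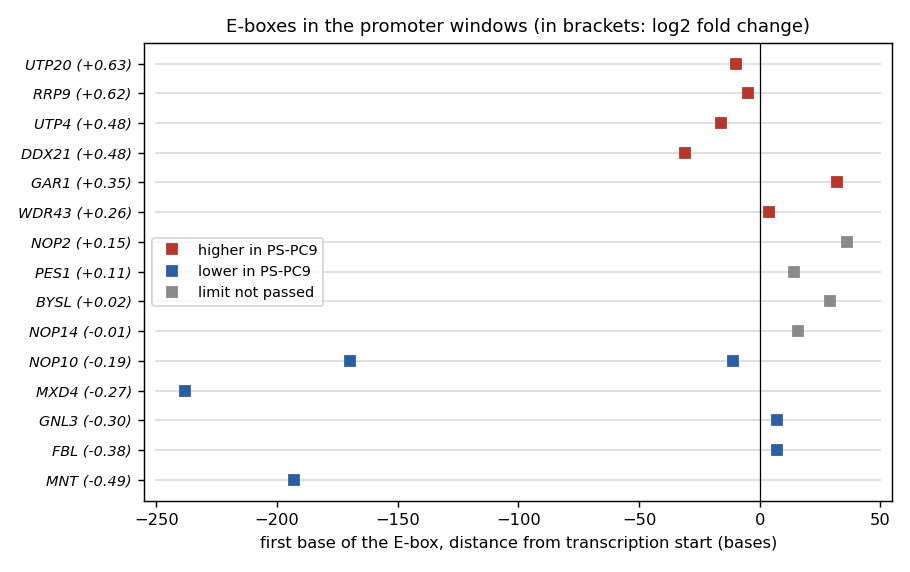
Distance of the first base of each E-box from the annotated transcription start (x axis, bases) in the promoter windows of the 15 genes that hold one (y axis, arranged by log2 fold change, given in brackets). Most copies lie close to the start, for genes higher (red), lower (blue) and past no limit (grey), and those of MXD4 and MNT and the first of the copies of NOP10 lie further upstream.

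Other genes of the pathway also moved both ways. Of 124 other ribosome biogenesis genes, all tested, 50 were higher (40.3%) and 21 lower (16.9%), with a median log2 fold change of 0.11. Among all genes tested the shares were 28.7% higher and 28.1% lower. In total 57.3% of the 124 genes were called, near the 56.8% of all genes. The small-subunit factors had 18 of 40 higher and 3 lower, with a median of 0.13, and the large-subunit factors 26 of 53 higher and 7 lower, with a median of 0.18. NOL6 (0.77, adjusted p = 3.43e-07 by edgeR) and DHX37 (0.73, adjusted p = 5.83e-06 by edgeR), of the small-subunit processome, had the largest rises of their list as log2 fold changes. NOB1 (-0.79, adjusted p = 6.24e-08 by edgeR), the nuclease of the last cut that makes the small-subunit rRNA, and DDX47 (-0.32, adjusted p = 8.84e-06 by edgeR) had the largest falls there. In the large-subunit list URB2 (0.98, adjusted p = 4.34e-08 by edgeR) and GNL3L (0.64, adjusted p = 1.47e-07 by edgeR) rose most, and NOP53 (-0.77, adjusted p = 1.19e-07 by edgeR) and NMD3 (-0.45, adjusted p = 9.98e-06 by edgeR), the adaptor that exports the large subunit, fell most.

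Of 10 other RNA polymerase I genes 1 was higher and 5 lower, with a median log2 fold change of -0.19. Among all genes 28.7% were higher and 28.1% lower. The called share was 60% in this list, 57.1% in the snoRNP list and 50% in the exosome list below, against 56.8% of all genes. The subunit POLR1H, listed as ZNRD1, was at 14.9 ± 1.04 CPM in PC9 against 7.13 ± 0.213 CPM in PS-PC9 (SD, n = 3), a log2 fold change of -1.06, adjusted p = 4.79e-07 by edgeR. POLR1D, shared with RNA polymerase III, had -0.65, adjusted p = 1.10e-07 by edgeR, and POLR1G, listed as CD3EAP, was the gene that rose (0.55, adjusted p = 3.42e-06 by edgeR). Among 7 other snoRNP proteins and assembly factors 2 were higher, ZNHIT6 (0.41) and SHQ1 (0.29), and 2 lower, PIH1D1 (-0.54) and ZNHIT3 (-0.52). Of 14 RNA exosome genes 3 were higher and 4 lower, with EXOSC6 (0.36) and MPHOSPH6 (0.32) as the largest rises and EXOSC9 (-0.46) and EXOSC7 (-0.37) as the largest falls. The call of MPHOSPH6 was lost without PC9 replicate 2 (0.23, adjusted p = 0.0107), without PC9 replicate 3 (0.35, adjusted p = 0.0119), without PS-PC9 replicate 1 (0.35, adjusted p = 0.0111), without PS-PC9 replicate 2 (0.32, adjusted p = 0.0197) and without PS-PC9 replicate 3 (0.30, adjusted p = 0.0257), and also with upper-quartile or library-size normalization, at 0.28 and 0.27.

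Around MYC itself, 6 of 15 other network factors and cofactors were higher and 4 lower, where 28.7% of all genes were higher and 28.1% lower. HUWE1, a ubiquitin ligase with MYC among its substrates, was at 773 ± 77.6 CPM in PC9 against 1465 ± 96.9 CPM in PS-PC9 (SD, n = 3), a log2 fold change of 0.92, adjusted p = 6.48e-07 by edgeR. MLXIP and MLXIPL, glucose-sensing factors that pair with MLX, moved apart, with 0.46, adjusted p = 2.29e-06 by edgeR for the first and -1.34, adjusted p = 1.72e-05 by edgeR for the second. PIM1, a kinase that stabilizes MYC, was at 71.5 ± 4.997 CPM in PC9 against 29.9 ± 0.348 CPM in PS-PC9 (SD, n = 3) and fell by the second largest amount of the list (-1.26, adjusted p = 1.06e-08 by edgeR). Of 19 tested genes known as MYC-activated outside the nucleolus 11 were higher and 4 lower, with a median log2 fold change of 0.22. ODC1, the first enzyme of polyamine synthesis, was at 70.1, 70.7 and 71.6 CPM in the PC9 libraries and 159, 167 and 163 CPM in the PS-PC9 libraries (log2 fold change 1.20, standard error 0.0375, edgeR adjusted p = 6.73e-10). SRM, spermidine synthase of the same pathway, had 0.69, adjusted p = 7.63e-07 by edgeR, and RCC1, the exchange factor of Ran, fell (-0.51, adjusted p = 2.38e-07 by edgeR). TERT, the catalytic subunit of telomerase, was scarce, at 0.4899 ± 0.0766 CPM in PC9 against 0.192 ± 0.0468 CPM in PS-PC9 (SD, n = 3), and was called lower (-1.35, adjusted p = 0.00514 by edgeR), a call lost without PC9 replicate 1 (-1.34, adjusted p = 0.0153), without PC9 replicate 3 (-1.24, adjusted p = 0.0239), without PS-PC9 replicate 1 (-1.52, adjusted p = 0.0102), without PS-PC9 replicate 2 (-1.35, adjusted p = 0.0199) and without PS-PC9 replicate 3 (-1.18, adjusted p = 0.0277). It was also lost with the replicate block (-1.34, edgeR adjusted p = 0.0107), with no expression filter (-1.34, edgeR adjusted p = 0.0132) and with DESeq2 (-1.36, DESeq2 adjusted p = 0.0465). Of 6 genes known as MYC-repressed 4 were higher and 1, NDRG2 (-0.53), was lower. GADD45A, a stress-response gene, was at 65.001, 66.8 and 66.2 CPM in the PC9 libraries and 187, 193 and 184 CPM in the PS-PC9 libraries (log2 fold change 1.51, standard error 0.0376, edgeR adjusted p = 1.44e-10), and CDKN1A, the cyclin-dependent kinase inhibitor p21, at 7.76, 8.67 and 7.48 CPM in the PC9 libraries and 18.7, 20.5 and 20.4 CPM in the PS-PC9 libraries (log2 fold change 1.32, standard error 0.0751, edgeR adjusted p = 7.12e-08). Genes known as MYC-activated (57.9% higher, 21.1% lower) and genes known as MYC-repressed (66.7% higher, 16.7% lower) both held more rises than falls. Over all genes tested 28.7% were higher and 28.1% lower. The part of MYC in these differences was not tested. Both lists are short and were written from general knowledge, but with earlier results of these data known. Their genes answer to other factors too.

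The transcript table gave 188 tested transcripts of the 42 genes, of which 12 were higher and 2 lower. These were 7.45% of those tested, and 7.8% of all transcripts tested were called, 3.89% higher and 3.91% lower. The counts for single transcripts rest on how Kallisto divided reads between similar transcripts, and shares are of the transcripts matched to GENCODE 44. For DDX21, MXD1, POLR1A, RRN3, RRP9 and UTP20 the called transcripts were the main ones of the gene. NCL had 3 called coding transcripts, and the call in TCOF1 fell on a minor one, TCOF1-212, with 2.51% ± 0.216 of the gene in PC9 and 4.06% ± 0.515 in PS-PC9 (SD, n = 3). POLR1A was carried by a pair of protein-coding transcripts that rose alike, POLR1A-201 at 25.3 ± 1.11 CPM in PC9 against 42.2 ± 1.06 CPM in PS-PC9 (log2 fold change 0.74, edgeR adjusted p = 0.000618) and POLR1A-203 at 26.2 ± 1.22 CPM in PC9 against 47.1 ± 1.24 CPM in PS-PC9 (log2 fold change 0.85, edgeR adjusted p = 0.000389). The called falls were the main transcripts of GNL3 (GNL3-202, log2 fold change -0.35, edgeR adjusted p = 0.00425) and MNT (MNT-201, log2 fold change -0.51, edgeR adjusted p = 0.00889). NOP56-216, which has no defined coding sequence, was at 18.2 ± 1.41 CPM in PC9 against 33.1 ± 3.71 CPM in PS-PC9 (log2 fold change 0.86, edgeR adjusted p = 0.00363) and made 18.1% ± 1.24 of the gene in PC9 and 29.2% ± 2.63 in PS-PC9 (SD, n = 3). The main coding transcript NOP56-201 was at 72.97 ± 0.887 CPM in PC9 against 64.8 ± 0.844 CPM in PS-PC9 (log2 fold change -0.17, edgeR adjusted p = 0.0228) and did not pass. The transcript of NOP56 that passed as higher was thus one without a defined coding sequence. With 1 library left out at a time 2 to 6 transcripts were called higher and 0 to 1 lower, and with the replicate block 0. These fits also leave fewer degrees of freedom, so they cannot show how far the calls rest on any single library. Transcript usage within a gene, tested with edgeR's diffSpliceDGE, was called in 0 of 37 genes at the adjusted limit, where 1.88% of all genes tested were called. Unadjusted p was under 0.05 in 7 of the 37, and the share of all genes at that looser limit was not computed. The gene-level F test of the same tool called 1, UTP4, and without PC9 replicate 1 the Simes test called 1, TCOF1. For UTP4 the transcript UTP4-203 made 15.03% ± 3.25 of the gene in PC9 and 26.03% ± 8.697 in PS-PC9 (SD, n = 3), and the adjusted Simes p was 0.0125.

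Some measures moved together with the comparison. Longer genes tended to higher log2 fold changes. Across the 41 genes, which are not independent replicates, Spearman's rho between the length of the canonical transcript and the log2 fold change was 0.308, with a median length of 3706 bases among the higher genes and 1626 among the lower ones. Over 13290 genes tested with a known length rho was 0.195. The part of length in these differences was not tested. Of 10 proliferation markers 6 were higher and 1 lower in PS-PC9, where 28.7% of all genes were higher and 28.1% lower. Their summed level was 1579.7 to 1669 CPM in PC9 against 2001 to 2026 CPM in PS-PC9. Counts on mitochondrial genes made 1.904 to 3.37% of PC9 libraries and 3.39 to 3.96% of PS-PC9 libraries. The 42 genes took 0.524 to 0.544% of all counts in PC9 and 0.543 to 0.558% in PS-PC9. The part of any of these in the differences was not tested.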

How the data were processed

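Poly-A RNA libraries of 3 PC9 and 3 PS-PC9 samples were sequenced, and the authors trimmed reads with FASTP, assigned them to Ensembl v96 transcripts (GRCh38.p13) with Kallisto 0.46.1 and deposited estimated counts per transcript and per gene, which were rounded to whole numbers here. How strand was handled was not given in the sources used here, so overlapping antisense genes could share reads.

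The gene and transcript tables were each fitted with edgeR 4.0.16 in R 4.3.3 (filterByExpr, TMM, quasi-likelihood test, Benjamini-Hochberg over all features tested, limit 0.01). The fit was also run on simulated counts with 200 changed features, a fixed spread and no library differences beyond depth. That setting is simpler than these data, so the run does not measure the error rate here. Alternatives used limma 3.58.1 (voom), DESeq2 1.42.0, other normalizations and filters, a replicate block and each library left out. Coordinates and transcript types came from GENCODE 44 (GRCh38), and promoter windows from RefSeq (GRCh38.p14). BOP1, RRN3 and FBL have copies on alternate haplotypes. Gene counts sum the copies, and 50% of their reads were on matched transcripts. Matched shares were also lower, at 58.6% for POLR1C, 68.2% for MYC, 77.4% for NOP16 and 82.4% for UTP4. Lengths per gene are read-weighted harmonic means.

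Depth was 29476725 to 34893782 counts per library, and intervals are 95%. Libraries of one group differed by more than counting error (chi-square per degree of freedom 3.53 to 21.1). The p-values weigh the group difference against the spread between these libraries, which edgeR moderates over all genes. The PS-PC9 libraries were pools, so their spread can understate that between single cultures. The labels tie no replicate number to a shared culture.

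All 42 genes could be named. Values in every library were given for the MYC/MAX network and, in each other group, at least for the largest rise, the largest fall and genes against the direction of their group. From each pathway list up to 2 called genes with the largest rise and 2 with the largest fall were named. The genes and lists were chosen with earlier results of these data known.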

Additional observations from a re-analysis of the deposited data

How the results depend on the processing

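The numbers of the 42 genes called higher stayed between 16 and 19 and called lower between 5 and 10 over 15 other settings of the fit, with 5 lower without PS-PC9 replicate 3 and 5 to 8 over the fits that leave out 1 library. A fold change above 1.5 as a further limit left 5 higher and 1 lower, and 14 higher and 7 lower of the pathway genes. Transcript calls were far less stable. Leaving out 1 library gave 2 to 6 higher and 0 to 1 lower transcripts, and at least 10 counts in every library gave 5 lower. Transcript usage was called in 1 gene by the F test, and in 0 to 1 with 1 library left out. UBTF turned to -0.0064 with library size alone. NOP14 turned to 0.0082 without PC9 replicate 2 and 0.024 without PS-PC9 replicate 3. BYSL turned to -0.021 with upper-quartile normalization, -0.032 with library size alone and -0.023 without PC9 replicate 1. With 1 library left out NOP14 ran from -0.057 to 0.024 and BYSL from -0.023 to 0.072. None of these 3 genes was called in any of those fits. The cause of these shifts was not tested.

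Same-numbered libraries did not deviate together in every case (correlations of deviations 0.124, 0.0236 and 0.0215), so the replicate numbers were not taken as pairs. With the replicate block 19 of the 42 genes were higher and 9 lower, WDR12 being added (log2 fold change -0.18), 8671 of all genes were called, and 0 transcripts of the 42 genes were higher and 0 lower. The block changed no other call among the 42 genes, and among the pathway genes named it ended the call of TERT (-1.34, edgeR adjusted p = 0.0107). TERT, MLXIPL and MYCL had the fewest counts among the called genes named, and MYCN was not detectable at this depth.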
